A study of Homo sapiens with 24 samples.

Results

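The genes described here are 35 members of the sterol and fatty acid synthesis programme controlled by the SREBP transcription factors, chosen by gene symbol from a fixed list of pathway enzymes and regulators. A gene was measured where a probe with its symbol had a detection p-value under 0.05 on at least 3 of 24 arrays, which gave 34 of the 35 listed genes, among 12895 genes tested in all. FDFT1, the squalene synthase gene, was not analysed here. Of the 51 probes annotated to the listed genes, 48 passed that filter. Just inside it were the single STARD4 probe, detected on 6 arrays, and an LSS probe detected on 5, and just outside it was an LSS probe detected on 2. In all, 32 of the 34 measured genes were detected on all 24 arrays, and the others were ELOVL7 on 13 arrays and STARD4 on 6.

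SREBP precursors sit in the endoplasmic reticulum, bound to the escort protein SCAP. When sterols are low, SCAP carries them to the Golgi, where they are cut to release a transcription factor that raises the genes of cholesterol and fatty acid synthesis; when sterols are high, the INSIG proteins hold SCAP back. In prostate cancer cells androgens are known to stimulate lipid synthesis, in part through this system.

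The cells were LREX', a human prostate cancer line selected for growth under the antiandrogen enzalutamide and known for a high level of the glucocorticoid receptor, so that all values come from 1 line. All cultures were kept in charcoal-stripped, steroid-depleted medium and treated for 8 h. The treated groups were enzalutamide with 1 nM DHT (dihydrotestosterone, an androgen), 1 nM DHT, enzalutamide with 10 nM dexamethasone (Dex, a synthetic glucocorticoid), 10 nM Dex, enzalutamide with 100 nM Dex, 100 nM Dex, and 10 µM enzalutamide alone, and the control was DMSO vehicle; the labels give no enzalutamide dose for the combinations. Each of the 8 groups had 3 arrays of total RNA, which the labels call biological triplicates; so few arrays bound how precise any value can be.

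The arrays had median signals between 59.4 and 69.5, with 19463 to 21017 probes detected on each. Of 9 prostate luminal markers with a named probe, 7 were detected on all arrays; KLK2 was detected on 15 arrays and KLK3 on 9. Of 10 markers of stroma, endothelium and immune cells, COL1A1, VWF and CD68 were detected on all arrays and COL3A1, PECAM1 and CD3E on none. A lower level in total RNA cannot tell fewer expressing cells from less RNA per cell. A known hormone target responded in these cultures: FKBP5, a co-chaperone of steroid receptor complexes, was 2.73-fold higher with DHT and 4.24-fold higher with Dex 100 nM, and adding enzalutamide to DHT lowered it 2.66-fold (all 3 called). All values below are normalized log2 signals, differences are log2 changes with their standard error (SE), and a gene is called where its Benjamini-Hochberg adjusted p from a limma fit over all 12895 genes is under 0.05. The comparisons against vehicle share the same 3 vehicle arrays and are therefore not independent of each other. Likewise, DHT over vehicle and enzalutamide with DHT over DHT share the same 3 DHT arrays.

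The members called with either hormone were regulators of SREBP and genes of fatty acid synthesis and elongation; the role groups were not tested against each other. With DHT, SCAP, ACACA and ELOVL5 rose and INSIG1 and INSIG2 fell, so 5 of 34 members (14.7%) were called, against 4.26% of all genes tested; 3 were higher, against 2.45% of all genes, and 2 lower, against 1.81%. With Dex 100 nM, SCAP, ACACA and ELOVL5 rose and INSIG2 fell, 4 of 34 members (11.8%) against 5.06% of all genes; 3 were higher, against 2.88% of all genes, and 1 lower, against 2.19%. With Dex 10 nM only SCAP was called, 1 of 34 members (2.94%) against 2.19% of all genes, and the 1 was higher, against 1.36% of all genes. With Dex 10 nM the split of all genes called was 175 higher and 108 lower, and 244 higher and 85 lower with median scaling. The median change of the members was 0.01 with DHT, -0.01 with Dex 10 nM and 0.02 with Dex 100 nM, beside -0.01 over all genes in each of these comparisons. In 12 pairwise comparisons 6 members were called at least once and 28 in none, while 9.58% of all genes tested were called at least once. The median SE of a pairwise change was 0.085 over the members and 0.117 over all genes. A smaller SE lets a smaller change be called, and the shares were not adjusted for this.

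**Figure D1:**
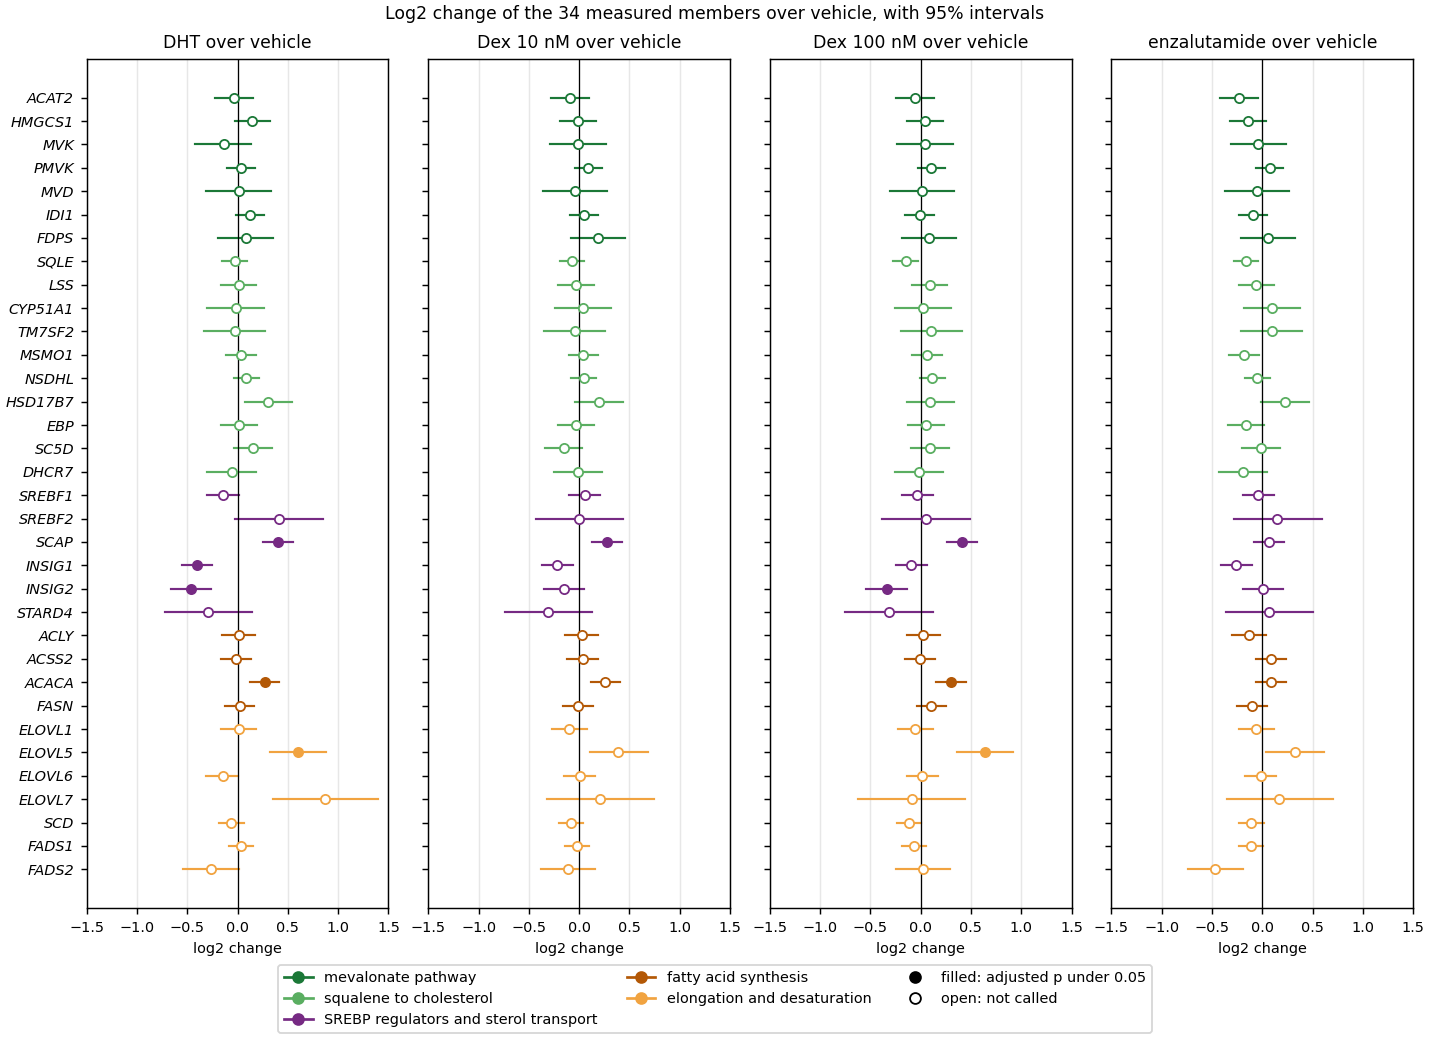
Log2 change over vehicle of the 34 measured members (rows, coloured by role) with DHT, Dex 10 nM, Dex 100 nM and enzalutamide; points are fitted changes, lines their 95% intervals, and filled points have an adjusted p under 0.05. The points of the 17 sterol synthesis enzymes at the top lie between -0.23 and 0.30 over the panels, and none is filled. The filled points lie among the SREBP regulators, ACACA and ELOVL5.

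Of the regulators, SCAP, the escort that carries SREBP precursors to the Golgi, rose with both hormones. Its signal was 10.86, 10.70 and 10.84 on the 3 DHT arrays, against 10.32, 10.48 and 10.39 on the vehicle arrays. It was 10.65, 10.66 and 10.72 with Dex 10 nM and 10.83, 10.83 and 10.75 with Dex 100 nM. Every hormone array lay above every vehicle array. SCAP rose 1.32-fold with DHT (log2 0.40 ± 0.07, adjusted p = 0.00133 in limma, with 3 arrays a group), 1.21-fold with Dex 10 nM (log2 0.28, adjusted p = 0.0489) and 1.33-fold with Dex 100 nM (log2 0.41 ± 0.07, adjusted p = 0.00107). The call with Dex 10 nM was lost on leaving out 5 of the 6 arrays in turn (all but vehicle replicate 2), with changes from 0.24 to 0.32.

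INSIG2 and INSIG1, which retain SCAP in the endoplasmic reticulum when sterols are high, moved the other way. INSIG2 had signals of 8.71, 8.65 and 8.89 with DHT and 8.88, 8.81 and 8.91 with Dex 100 nM, against 9.25, 9.13 and 9.24 with vehicle. The hormone arrays lay below all vehicle arrays. INSIG2 fell 1.37-fold with DHT (log2 -0.46 ± 0.09, adjusted p = 0.00523) and 1.27-fold with Dex 100 nM (log2 -0.34, adjusted p = 0.043). With Dex 10 nM it had 9.13, 9.12 and 8.91, a change of -0.15 that was not called (95% interval -0.35 to 0.05). The fall with Dex 100 nM was not called without any 1 of its 6 arrays (adjusted p from 0.0615 to 0.149, changes from -0.38 to -0.31), nor with median scaling (adjusted p = 0.0553), no filter (0.0624) or separate probes (0.0726).

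INSIG1 is itself a well-known SREBP target as well as a retention protein. Its signals were 10.73, 10.83 and 10.68 with DHT, against 11.06, 11.19 and 11.19 with vehicle, with no overlap. It fell 1.32-fold (log2 -0.40 ± 0.07, adjusted p = 0.00168). With Dex 100 nM its signals were 11.07, 10.97 and 11.11, and the change of -0.10 (95% interval -0.25 to 0.06) was not called. The values were 11.08, 10.90 and 10.81 with Dex 10 nM (change -0.22, interval -0.37 to -0.06, adjusted p = 0.163), and with enzalutamide alone 10.83, 10.89 and 10.95 (change -0.26, interval -0.41 to -0.10, adjusted p = 0.461). Neither was called; the 3 enzalutamide arrays lay below all vehicle arrays, and the Dex 10 nM arrays overlapped them. These values come from the brighter of 2 INSIG1 probes; the dimmer one changed by -0.14 ± 0.11 with DHT and was not called (adjusted p = 0.812 over all probes), so the 2 probes disagree on the size of the fall.

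The transcription factor genes themselves did not pass the test. SREBF2 was read from 1 probe of low signal (mean 5.87 over the 24 arrays), and SREBF1 from the brightest of 3. SREBF1, whose SREBP-1 products mainly drive fatty acid genes, had 10.36, 10.50 and 10.56 with DHT, against 10.47, 10.66 and 10.73 with vehicle, and SREBF2, whose product mainly drives cholesterol genes, had 5.80, 6.36 and 6.27 with DHT, against 5.64, 5.93 and 5.63 with vehicle. Both pairs of groups overlapped, with changes of -0.15 (95% interval -0.30 to 0.01) for SREBF1 and 0.41 (interval -0.03 to 0.85) for SREBF2. STARD4, a cytosolic sterol carrier, lay close to background, and no fold is given for it. With DHT, Dex 10 nM, Dex 100 nM or enzalutamide and DHT, 0 of 3 arrays detected it. It was detected on 1 of 3 arrays with enzalutamide and either Dex dose, and on 2 of 3 with vehicle or enzalutamide alone.

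The promoters of the 3 called regulators and of ELOVL5 are shown, and those of ACACA and ELOVL7, also called, are not. They are the 250 bases before the annotated start (RefSeq, GRCh38.p14), 5′ to 3′ on the strand of the gene, with matches to the motifs CACGTG (the E-box form) and CCAAT, on either strand, in capitals. SCAP lies on the minus strand at chr3:47475942-47476191, INSIG1 on the plus strand at chr7:155297628-155297877, INSIG2 on the plus strand at chr2:118088221-118088470 (the first of 2 starts listed) and ELOVL5 on the minus strand at chr6:53348951-53349200.
SCAP: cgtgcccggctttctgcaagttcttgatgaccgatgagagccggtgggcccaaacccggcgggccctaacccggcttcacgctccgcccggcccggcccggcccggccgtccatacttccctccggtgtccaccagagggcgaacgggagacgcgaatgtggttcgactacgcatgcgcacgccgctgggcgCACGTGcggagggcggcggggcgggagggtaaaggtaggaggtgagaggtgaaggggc
INSIG1: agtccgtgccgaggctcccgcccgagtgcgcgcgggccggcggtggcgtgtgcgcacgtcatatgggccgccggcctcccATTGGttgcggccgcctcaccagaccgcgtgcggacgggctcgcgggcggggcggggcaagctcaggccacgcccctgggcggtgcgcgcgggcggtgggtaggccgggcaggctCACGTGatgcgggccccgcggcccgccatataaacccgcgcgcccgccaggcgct
INSIG2: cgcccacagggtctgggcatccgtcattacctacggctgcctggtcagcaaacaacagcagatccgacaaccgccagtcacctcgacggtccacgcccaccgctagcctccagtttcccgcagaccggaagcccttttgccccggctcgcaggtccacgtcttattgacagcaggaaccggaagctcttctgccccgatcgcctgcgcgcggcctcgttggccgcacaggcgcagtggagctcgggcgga
ELOVL5: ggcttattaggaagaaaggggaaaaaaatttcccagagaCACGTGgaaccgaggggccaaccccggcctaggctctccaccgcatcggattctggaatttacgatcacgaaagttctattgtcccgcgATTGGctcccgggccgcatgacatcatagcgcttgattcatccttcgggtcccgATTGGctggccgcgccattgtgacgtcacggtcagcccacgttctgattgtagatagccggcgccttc
The E-box form CACGTG, a palindrome, was found 58 to 53 bases before the start of SCAP, 55 to 50 before that of INSIG1 and 211 to 206 before that of ELOVL5, and was not found in the INSIG2 window. The windows of ACACA (the first of 3 starts listed) and ELOVL7 held 0 matches to each motif searched. Among 31 listed genes with a promoter in the table (the first start of each), 4 held CACGTG (12.9%), the fourth being SC5D, against 6.34% of 35116 promoters. The 35116 promoters counted every listed start of a gene, so the shares here and below are not of like sets. CCAAT was in 20 of the 31 (64.5%), against 32% of all promoters, with 1 match in INSIG1 and 2 in ELOVL5. The core of a sterol regulatory element, TCACNCCAC, was in 1 of the 31 (SREBF2), against 0.883% of all. The steroid receptor half-site AGAACA was in 1 (PMVK), against 12.4% of all. Both strands were searched for every motif. A match describes these letters only.

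**Figure D2:**
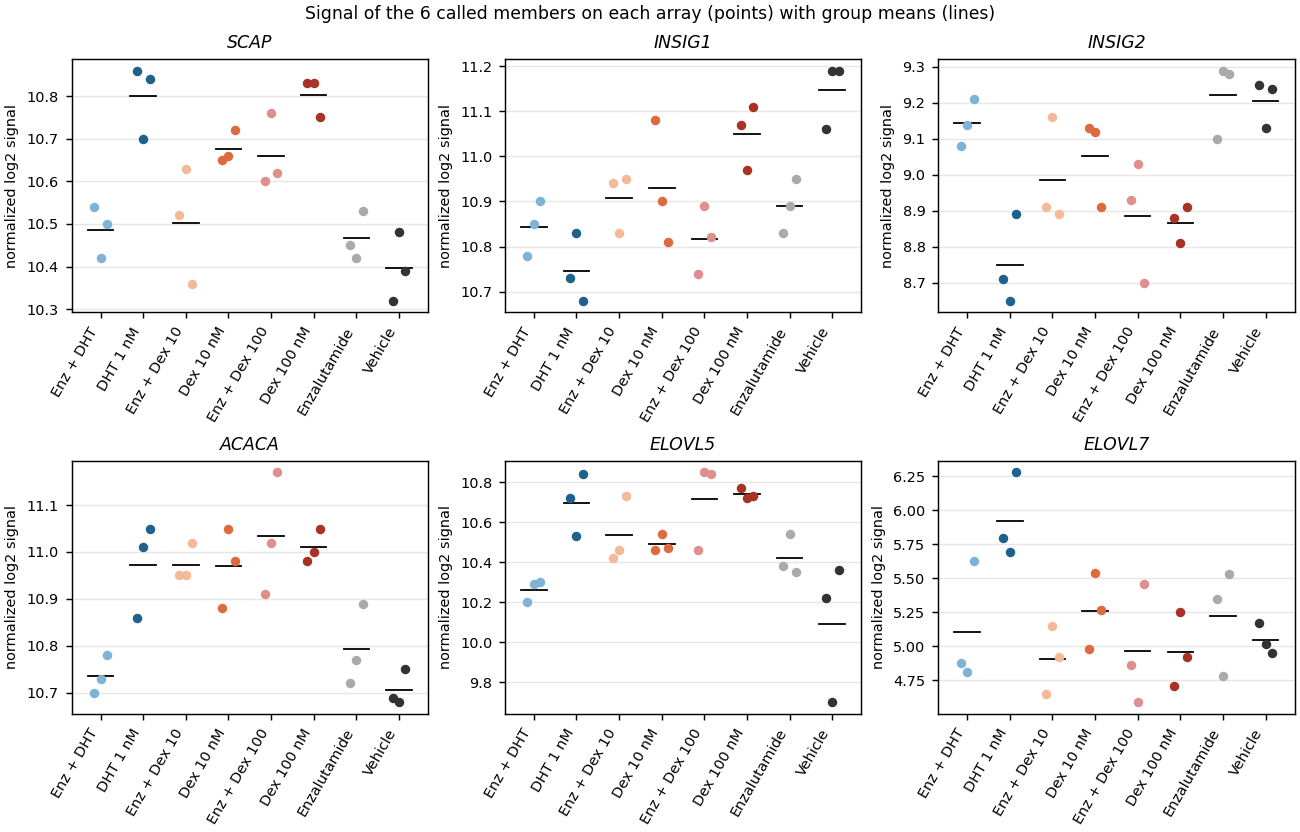
Normalized log2 signal of the 6 members called in at least 1 pairwise comparison, by treatment group on the x axis (points: the 3 arrays; lines: group means; axes do not start at 0). SCAP, ACACA and ELOVL5 are higher with DHT and with Dex 100 nM than with vehicle, INSIG2 is lower with both, and INSIG1 is lower with DHT.

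No sterol synthesis enzyme was called in the main fit, which covered all 24 arrays with no block for the numbers in the sample titles. The mevalonate pathway turns acetyl-CoA into isoprenoid units (ACAT2, HMGCS1, MVK, PMVK, MVD, IDI1 and FDPS), and the later enzymes (SQLE, LSS, CYP51A1, TM7SF2, MSMO1, NSDHL, HSD17B7, EBP, SC5D and DHCR7) turn squalene into cholesterol. In limma, 0 of the 17 were called in any of the 12 pairwise comparisons, while 9.58% of all genes were called in at least 1; nothing particular to the enzymes is read from a count of 0 among 17. With DHT their changes ran from -0.14 to 0.30 (median 0.01, beside -0.01 for all genes), and 1 had an unadjusted p under 0.05 (13.2% of all genes did). That gene was HSD17B7, a sterol ketone reductase, at 0.30 ± 0.11 (adjusted p = 0.198). It was called without DHT replicate 1 (log2 0.43, adjusted p = 0.0422), and ACAT2, the cytosolic acetoacetyl-CoA thiolase, was called for enzalutamide with Dex 10 nM over enzalutamide without enzalutamide replicate 1 (log2 0.40, adjusted p = 0.0445). The 95% intervals of the 17 with DHT lay between -0.42 and 0.54, that is, within 1.46-fold.

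With Dex 100 nM the sterol enzymes changed by -0.15 to 0.11 (median 0.05), and SQLE, the squalene epoxidase, was the 1 gene with an unadjusted p under 0.05, at -0.15 ± 0.06 (adjusted p = 0.166). With Dex 10 nM they changed by -0.15 to 0.20 (median -0.01), and 0 had an unadjusted p under 0.05. On adding enzalutamide to DHT they changed by -0.26 to 0.13 (median -0.1, beside 0.01 for all genes). Adding it to Dex 10 nM gave -0.23 to 0.16 (median -0.02, beside 0), and to Dex 100 nM -0.27 to 0.36 (median -0.09, beside -0.01). Over vehicle it gave -0.23 to 0.23 (median -0.05, beside 0). In that order 4, 0, 3 and 3 had an unadjusted p under 0.05, against 12.7%, 6.98%, 8.14% and 7.8% of all genes. The mean of the 17 log2 signals was 9.66 ± 0.03 with enzalutamide and DHT, 9.73 ± 0.02 with DHT, 9.69 ± 0.06 with enzalutamide and Dex 10 nM, 9.70 ± 0.04 with Dex 10 nM, 9.66 ± 0.02 with enzalutamide and Dex 100 nM, 9.73 ± 0.02 with Dex 100 nM, 9.64 ± 0.01 with enzalutamide alone and 9.69 ± 0.02 with vehicle (SD, n = 3 arrays). The group means thus spanned 9.64 to 9.73, and no test was made on this average.

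**Figure D3:**
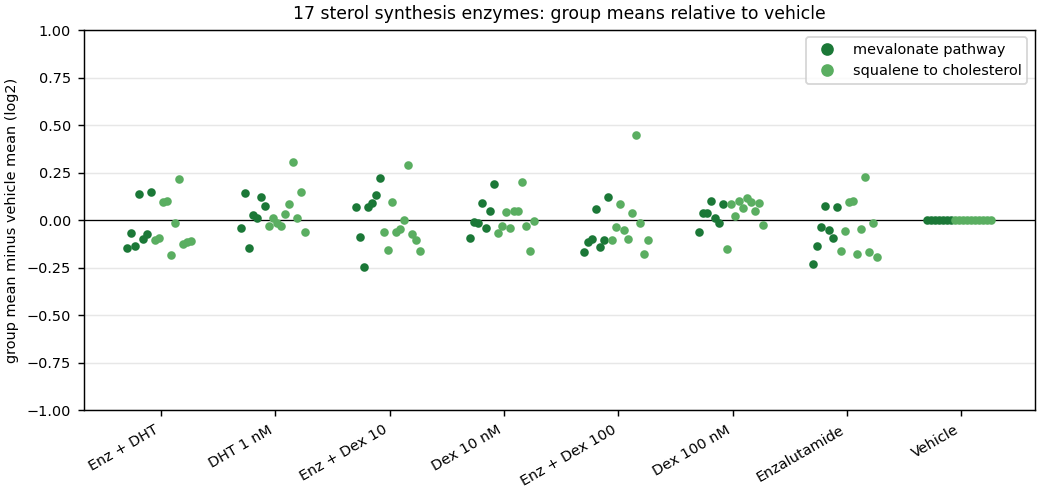
Group mean of each of the 17 measured sterol synthesis enzymes minus its vehicle mean (log2, y axis) by treatment (x axis; 1 point a gene, mean of 3 arrays). The DHT and Dex points lie between -0.15 and 0.30, around the vehicle line at 0. Points of the enzalutamide groups reach further both ways. The highest is HSD17B7 with enzalutamide and Dex 100 nM (mean 11.15, against 10.70 with vehicle). The lowest is MVK with enzalutamide and Dex 10 nM (mean 6.92, against 7.17).

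Cultures of one group were also compared for shared variation of the sterol enzymes. The correlation of their deviations from the group means over the 24 arrays had a median of 0.03 over 136 gene pairs, with a range from -0.82 to 0.71, beside 0.02 over the 561 pairs of all 34 members and 0 over all genes tested. The arrays share processing and normalization, and these correlations are a description.

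Of the 4 genes that make palmitate from citrate and acetate, ACACA alone was called. ACACA, acetyl-CoA carboxylase, makes the malonyl-CoA used in fatty acid synthesis. Its signals were 10.86, 11.01 and 11.05 with DHT and 10.98, 11 and 11.05 with Dex 100 nM, against 10.69, 10.68 and 10.75 with vehicle. All hormone arrays lay above the vehicle arrays. ACACA rose 1.2-fold with DHT (log2 0.27 ± 0.07, adjusted p = 0.0355) and 1.23-fold with Dex 100 nM (log2 0.30 ± 0.07, adjusted p = 0.0133). With Dex 10 nM it had 10.88, 11.05 and 10.98, again above vehicle, and its change of 0.26 (95% interval 0.12 to 0.41) missed the threshold (adjusted p = 0.0581); it was called with array weights (adjusted p = 0.0246) and with the deposited normalized values (adjusted p = 0.0462). A second ACACA probe changed by 0.21 ± 0.07 with DHT, not called, and by 0.33 ± 0.07 with Dex 100 nM, called over all probes (adjusted p = 0.0146). The call with DHT was lost without any 1 of 5 of the 6 arrays (all but DHT replicate 1; changes from 0.23 to 0.32), with no filter (adjusted p = 0.0567) and with separate probes (0.0721), and that with Dex 100 nM without vehicle replicate 1, vehicle replicate 2 or Dex 100 nM replicate 3 (changes from 0.28 to 0.32).

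The other 3 genes of this step were not called in any comparison. FASN, the fatty acid synthase, averaged 12.80 ± 0.04 with DHT, 12.77 ± 0.09 with Dex 10 nM and 12.88 ± 0.15 with Dex 100 nM, against 12.78 ± 0.02 with vehicle (SD, n = 3 arrays). ACLY, which makes acetyl-CoA from citrate, and ACSS2, which makes it from acetate, had 95% intervals with DHT of -0.16 to 0.17 and -0.17 to 0.13. For DHT the 4 genes of this step had changes from -0.02 to 0.27 (median 0.01).

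Among the 7 genes of elongation and desaturation, ELOVL5, which lengthens polyunsaturated fatty acids, gave the largest called change over vehicle. Its signals were 10.72, 10.53 and 10.84 with DHT and 10.77, 10.72 and 10.73 with Dex 100 nM, against 10.22, 9.70 and 10.36 with vehicle. No hormone array overlapped the vehicle arrays, of which replicate 2 was the lowest. ELOVL5 rose 1.52-fold with DHT (log2 0.60 ± 0.14, adjusted p = 0.0109) and 1.56-fold with Dex 100 nM (log2 0.64, adjusted p = 0.00585). With Dex 10 nM it had 10.46, 10.54 and 10.47, and the change of 0.39 (95% interval 0.11 to 0.68) was not called. The DHT call was lost without vehicle replicate 2 or without DHT replicate 3 (adjusted p up to 0.0742), with changes between 0.40 and 0.73 over all 6 arrays left out in turn, while the Dex 100 nM call kept an adjusted p of at most 0.0387.

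ELOVL7, another elongase, had a dim probe, seen above background on 3 of 3 DHT arrays and 2 of 3 vehicle arrays. Its signals were 5.80, 5.69 and 6.28 with DHT, against 5.17, 5.02 and 4.95 with vehicle. The DHT arrays were higher, and the change of 0.87 (95% interval 0.35 to 1.40) missed the threshold (adjusted p = 0.0582). It was called with an offset of 50 (log2 0.50, adjusted p = 0.0229) and with median scaling (log2 0.93, adjusted p = 0.0347). SCD, the stearoyl-CoA desaturase, averaged 12.99 ± 0.10 with DHT, against 13.05 ± 0.02 with vehicle (SD, n = 3 arrays). ELOVL1, ELOVL6, SCD, FADS1 and FADS2 were not called in any of the 12 pairwise comparisons; of these 5, FADS2 had the widest interval with DHT, -0.54 to 0.01. A fit that took its spread only from the arrays compared ended every member call in this text (with DHT, SCAP adjusted p = 0.0644, INSIG1 0.0587, INSIG2 0.0544, ELOVL5 0.192); it called 1 member with DHT, ELOVL7 (adjusted p = 0.0405).

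Adding enzalutamide to DHT lowered SCAP and raised INSIG2, 2 of 34 members (5.88%), against 3.72% of all genes tested; 1 was higher, against 1.22% of all genes, and 1 lower, against 2.5%. SCAP had 10.54, 10.42 and 10.50 with enzalutamide and DHT, against 10.86, 10.70 and 10.84 with DHT alone. The groups did not overlap, and SCAP fell 1.24-fold (log2 -0.31 ± 0.07, adjusted p = 0.0136). INSIG2 had 9.08, 9.14 and 9.21 with the combination, against 8.71, 8.65 and 8.89 with DHT, and rose 1.31-fold (log2 0.39 ± 0.09, adjusted p = 0.02). The means with the combination were 10.49 for SCAP and 9.14 for INSIG2, beside 10.40 and 9.21 with vehicle, and this pair of groups was not tested. The SCAP call was lost without DHT replicate 1, enzalutamide and DHT replicate 2 or DHT replicate 3 (changes from -0.36 to -0.28), and that of INSIG2 without DHT replicates 1 or 2 or combination replicates 2 or 3 (changes from 0.34 to 0.46).

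ACACA, ELOVL5 and ELOVL7, which lay higher with DHT, were lower with the combination and were not called in the main fit. ACACA had 10.70, 10.73 and 10.78 with enzalutamide and DHT, a change from DHT alone of -0.24 (95% interval -0.39 to -0.09, adjusted p = 0.0743); it was called with array weights (adjusted p = 0.0424) and without DHT replicate 1 (adjusted p = 0.0396). ELOVL5 had 10.20, 10.29 and 10.30, a change of -0.43 (interval -0.72 to -0.15, adjusted p = 0.0968). ELOVL7 had 4.88, 4.81 and 5.63, a change of -0.82 (interval -1.34 to -0.29, adjusted p = 0.0918); it was called with an offset of 50 (log2 -0.46, adjusted p = 0.045) and without enzalutamide with DHT replicate 3 (log2 -1.08, adjusted p = 0.0217). In each, all combination arrays lay below all DHT arrays. These genes were named for lying higher on those same DHT arrays, so the fall is not independent of the rise. The share of all genes separated in this way was not counted. INSIG1 had 10.78, 10.85 and 10.90, a change of 0.10 (interval -0.06 to 0.25). In all, 10 members had an unadjusted p under 0.05 (12.7% of all genes did). Of these, 9 were lower and 1 higher, beside 839 lower and 799 higher of all 12895 genes. Among the 9 were the sterol enzymes HMGCS1, IDI1, MSMO1 and SC5D at -0.26 to -0.20, none of which was called in the main fit.

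**Figure D4:**
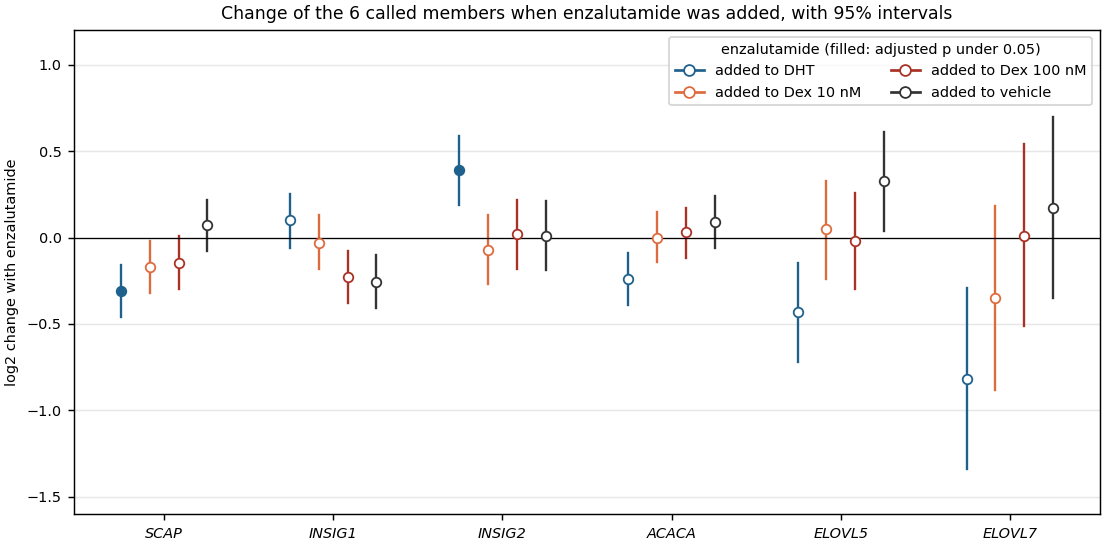
Log2 change on adding enzalutamide to DHT, Dex 10 nM, Dex 100 nM or vehicle (colours) for the 6 called members, with 95% intervals; filled points have an adjusted p under 0.05. The DHT points of SCAP and INSIG2 are the filled ones, and the DHT points of ACACA, ELOVL5 and ELOVL7 lie below 0.

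With enzalutamide alone no member passed the limma test (0 of 34 called, against 0.0155% of all genes). At an unadjusted p under 0.05 were 6 members (7.8% of all genes), 1 higher and 5 lower, beside 510 higher and 496 lower of all genes. FADS2, the desaturase at the head of polyunsaturated fatty acid synthesis, gave the lowest of these, -0.47 (95% interval -0.74 to -0.19, adjusted p = 0.438). ELOVL5 was the higher one, at 0.33 (interval 0.04 to 0.61). Whether the effect of enzalutamide itself differed between backgrounds was tested as a difference of changes. In the DHT background minus the vehicle background, 1 of 34 members was called, and was lower, against 1.81% of all genes in either direction and 1.26% lower: ELOVL5, at -0.76 ± 0.19 (adjusted p = 0.0469). That call was lost on leaving out 10 of the 12 arrays in turn (values from -0.89 to -0.56; it was kept without DHT replicate 2 or vehicle replicate 3). SCAP gave -0.38 (95% interval -0.60 to -0.17, adjusted p = 0.0633), and INSIG2 gave 0.38 (interval 0.10 to 0.66, adjusted p = 0.253). In the Dex 10 nM minus vehicle, Dex 100 nM minus vehicle and Dex 100 nM minus DHT backgrounds, 0 members were called by limma, against 0%, 0% and 1.62% of all genes. At an unadjusted p under 0.05 were 4, 2 and 6 members, against 7.78%, 7.61% and 10.2% of all genes.

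With enzalutamide added to dexamethasone, no member passed the limma test. At Dex 10 nM 0 of 34 were called, as were 0% of all genes, with 1 at an unadjusted p under 0.05, against 6.98% of all genes (SCAP, at 10.52, 10.63 and 10.36 with enzalutamide and Dex 10 nM, against 10.65, 10.66 and 10.72 with Dex 10 nM). At Dex 100 nM 0 of 34 were called, also 0% of all genes, with 4 at an unadjusted p under 0.05, against 8.14% of all genes. The 4 were 1 SREBP regulator, lower, and 3 sterol enzymes, 1 higher and 2 lower (lowest adjusted p of the members 0.419 in limma). INSIG1 averaged 10.82 with enzalutamide and Dex 100 nM, against 11.05 with Dex 100 nM, and HSD17B7 averaged 11.15, against 10.80. INSIG2 there had 8.93, 9.03 and 8.70 with the combination, against 8.88, 8.81 and 8.91 with Dex 100 nM, a change of 0.02 (95% interval -0.18 to 0.22). ELOVL5 had 10.46, 10.85 and 10.84, against 10.77, 10.72 and 10.73, a change of -0.02 (interval -0.30 to 0.26). The groups overlapped in both genes.

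Under enzalutamide, no member was called in limma when a hormone was added. DHT gave 0 of 34, against 0% of all genes, and 0 at an unadjusted p under 0.05, against 3.32% of all genes. Dex 10 nM gave 0 of 34, against 1.08% of all genes, with 5 at an unadjusted p under 0.05, against 9.9% of all genes. Dex 100 nM gave 0 of 34, against 3.4% of all genes, with 4 at that level, against 14% of all genes. In this last comparison INSIG2 had 8.93, 9.03 and 8.70 with enzalutamide and Dex 100 nM, against 9.10, 9.29 and 9.28 with enzalutamide alone, a change of -0.33 (95% interval -0.53 to -0.14, adjusted p = 0.0605). ACACA had 10.91, 11.02 and 11.17 with the combination, against 10.72, 10.77 and 10.89 with enzalutamide, a change of 0.24 (interval 0.09 to 0.39, adjusted p = 0.0719). Neither pair of groups overlapped. Both genes were called when only probes detected on all 24 arrays were tested (adjusted p = 0.0417 for INSIG2 and 0.0491 for ACACA).

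Between the Dex doses no member was called by limma (0 of 34 for Dex 100 nM over Dex 10 nM, against 0.651% of all genes, with 1 at an unadjusted p under 0.05, against 8.03% of all genes). SCAP differed by 0.13 (95% interval -0.02 to 0.28), INSIG2 by -0.19 (interval -0.39 to 0.01) and ELOVL5 by 0.25 (interval -0.04 to 0.53). Between the hormones, 2 of 34 members were called for Dex 100 nM over DHT, against 2.61% of all genes; 1 was higher, against 1.49% of all genes, and 1 lower, against 1.12%. INSIG1 had 11.07, 10.97 and 11.11 with Dex 100 nM, against 10.73, 10.83 and 10.68 with DHT, and was 1.23-fold higher (log2 0.30 ± 0.07, adjusted p = 0.0287). The dimmer INSIG1 probe changed by -0.07 ± 0.11. ELOVL7 was lower, with 4.71, 5.25 and 4.92 with Dex 100 nM, against 5.80, 5.69 and 6.28 with DHT (log2 -0.96 ± 0.25, adjusted p = 0.0458). It was detected on 1 of the 3 Dex 100 nM arrays and no fold is given for it. Its change was -0.54 with an offset of 50 (adjusted p = 0.0191) and -1.96 with the deposited normalized values (adjusted p = 0.449), and it was not called with no filter (adjusted p = 0.0617) or separate probes (0.0688). The INSIG1 call was lost on leaving out any 1 of replicates 1 and 3 of DHT and of Dex 100 nM (changes from 0.27 to 0.35) and the ELOVL7 call on leaving out any of the 6 (changes from -1.11 to -0.78). SCAP, ACACA and ELOVL5 differed by 0.01, 0.04 and 0.04 between the hormones, with intervals from -0.14 to 0.16, -0.11 to 0.18 and -0.24 to 0.32.

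Other genes of the pathway, from a list of 34 of which 24 were measured, held 4 that were called in at least 1 pairwise comparison. NPC1, which exports cholesterol from lysosomes, changed most. Its signals were 9.63, 9.75 and 9.79 with DHT, 9.85, 9.97 and 9.80 with Dex 10 nM and 10.31, 10.28 and 10.23 with Dex 100 nM, against 9.19, 9.06 and 9.13 with vehicle. These groups did not overlap with vehicle, and NPC1 rose 1.51-fold with DHT (log2 0.60, adjusted p = 1.45e-05), 1.68-fold with Dex 10 nM (log2 0.75, adjusted p = 1.3e-06) and 2.22-fold with Dex 100 nM (log2 1.15 ± 0.07, adjusted p = 1.02e-09). With enzalutamide and DHT it had 9.23, 9.12 and 9.07, a fall of 1.5-fold from DHT alone (log2 -0.58, adjusted p = 2.14e-05). Its enzalutamide effect differed between the DHT and vehicle backgrounds (log2 -0.59, adjusted p = 0.00194 in limma). Under enzalutamide it still rose with Dex 10 nM (log2 0.59, adjusted p = 4.69e-05) and with Dex 100 nM (log2 0.84, adjusted p = 1.23e-07). Enzalutamide with Dex 100 nM gave 9.89, 9.97 and 10.06, all below the Dex 100 nM values, and limma called 0 of the 24 genes between these groups. Dex 100 nM raised NPC1 above Dex 10 nM (log2 0.40, adjusted p = 0.00724; lost without Dex 10 nM replicate 3 and with only the arrays compared) and above DHT (log2 0.55, adjusted p = 6.85e-05).

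The other 3 called pathway genes had smaller changes. MID1IP1, which helps acetyl-CoA carboxylase polymerise, rose with enzalutamide and DHT over DHT alone (9.88, 9.90 and 9.85 with the combination, against 9.55, 9.66 and 9.64 with DHT; log2 0.26, adjusted p = 0.0246). FAF2, an endoplasmic reticulum and lipid droplet protein, fell with Dex 100 nM (11.07, 11.12 and 11.16, against 11.32, 11.42 and 11.27 with vehicle; log2 -0.22, adjusted p = 0.0396). CYB5B, a mitochondrial cytochrome b5, fell with enzalutamide and Dex 100 nM from enzalutamide alone (11.47, 11.45 and 11.40, against 11.65, 11.73 and 11.65; log2 -0.24, adjusted p = 0.0128). These 3 calls ended with only the arrays compared, and on leaving out 5 of 6 arrays in turn for MID1IP1 (all but DHT replicate 2), 5 of 6 for FAF2 (all but vehicle replicate 3) and enzalutamide replicate 2 or enzalutamide with Dex 100 nM replicate 3 for CYB5B. Of the 24 genes, 1 was called (4.17%), and was higher, with DHT (4.26% of all genes), with Dex 10 nM (2.19%), with enzalutamide and Dex 10 nM over enzalutamide (1.08%), and with Dex 100 nM over Dex 10 nM (0.651%) and over DHT (2.61%). There were 2 (8.33%), 1 each way, with Dex 100 nM (5.06% of all genes), with enzalutamide and DHT over DHT (3.72%), and with enzalutamide and Dex 100 nM over enzalutamide (3.4%). In the other 4 comparisons limma called 0, against at most 0.0155% of all genes. At an unadjusted p under 0.05 were 2 with enzalutamide over vehicle (7.8% of all genes) and 1 with enzalutamide and DHT over enzalutamide (3.32%). Adding enzalutamide to Dex 10 nM gave 2 at that level (6.98% of all genes), and to Dex 100 nM 3 (8.14%). The median change of the 24 genes was -0.02 with DHT and -0.04 with Dex 100 nM.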

How the data were processed

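Gene expression in 24 LREX' cultures was measured on Illumina beadchips. The deposited signal intensity is the mean bead signal of a probe, not normalized between arrays by the authors. Per the file headers, each signal also has a detection p-value against negative control beads and a count of beads, both as deposited. The submitters' processing notes name GenomeStudio, with no version in the sources used here. The method behind a second deposited table, of normalized intensity values, is not given: it ordered the probes of every array like the signals (Spearman rho of 1), had 29.4% to 29.6% of probes below 0 and medians from 9.29 to 9.33. Its direction is that of the signals and its scale is linear; its centring stays unknown, and it served as an alternative.

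The platform annotation gave 1 gene symbol to 30113 of 47323 probes, several to 8 and none to 17202. Entrez identifiers matched 30074 probes to a RefSeq table of GRCh38.p14 and changed 0 symbols. Signals were background-corrected by normexp with parameters from the detection p-values and an offset of 16, quantile normalized and log2 transformed, with limma 3.58.1 in R 4.3.3. A probe needed a detection p under 0.05 on 3 or more arrays, and the brightest probe stood for a gene, which gave 12895 genes; 11 listed genes had several kept probes. Group means were fitted to all 24 arrays (lmFit and eBayes), with Benjamini-Hochberg adjustment in each of 12 pairwise comparisons and 4 differences of enzalutamide effects. The procedure was tested on simulated data.

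The members, lists and tests were chosen with earlier results of these data known. Values in every array are given for members called in at least 1 pairwise comparison, other pathway genes are named where called, and the rest are given by range and count. The alternatives were median scaling, the deposited normalized values, an offset of 50, 2 other filters, 2 other probe rules, array weights, only the arrays compared, a block for the title numbers and leaving out each array. The numbers at the end of the titles run in 3 rounds, and of 84 pairs of arrays of a round 35 had deviations that correlated above 0.1 (median 0.09, beside -0.03 for pairs of different rounds). These correlations do not settle whether the rounds pair the cultures. The labels state no pairing, so the main fit had no block for the rounds and the block served as an alternative. No 2 arrays held identical signals (0 pairs). Figures were drawn with matplotlib 3.10.9.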

Additional observations from a re-analysis of the deposited data

Results flagged for a closer look

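The effect of enzalutamide on ELOVL5 was called as different between backgrounds in the main fit. The change on adding enzalutamide was -0.43 in the DHT background and 0.33 in the vehicle background, a difference of -0.76 ± 0.19 on the log2 scale (n = 3 arrays per group, limma adjusted p = 0.0469). Neither change was called (adjusted p = 0.0968 and 0.61). Vehicle replicate 2, at 9.70, was the lowest of the 24 ELOVL5 values, and without it the difference was -0.56 ± 0.16 and was not called (adjusted p = 0.105). The call was lost on leaving out 10 of the 12 arrays in turn. It was also lost with median scaling, the deposited normalized values, no filter and separate probes.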

How the results depend on the processing

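Of 28 named changes of single genes, 0 reversed under the 279 combinations with an alternative other than leaving out an array; 235 kept their side of the threshold and 44 fell below it. Depth is not counted on arrays: signal near background limits ELOVL7 and STARD4, and 3 arrays a group give a median 95% half-width of 0.178 over the members.

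With the spread taken only from the arrays compared, the members called fell to 1 for DHT over vehicle, and to 0 for Dex 10 nM over vehicle, Dex 100 nM over vehicle, enzalutamide with DHT over DHT, Dex 100 nM over DHT and the enzalutamide effect in DHT minus vehicle; fewer arrays leave fewer degrees of freedom. For Dex 10 nM over vehicle the count was 2 with median scaling, the deposited values, an offset of 50, probes detected on all 24 arrays, the mean of a gene's probes and array weights, and 0 with no filter or separate probes. For enzalutamide with DHT over DHT it was 3 with an offset of 50 or array weights. For Dex 100 nM over DHT it was 1 with the deposited values, probes detected on all 24 arrays, no filter and the mean of probes, and 0 with separate probes. For enzalutamide with Dex 100 nM over enzalutamide it was 1 with an offset of 50 and 2 with probes detected on all 24 arrays. For the enzalutamide effect in DHT minus vehicle it was 0 with median scaling, the deposited values, no filter and separate probes, and 2 with probes detected on all 24 arrays or array weights. Where no value shows it, the cause was not tested.

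The rounds of the title numbers as a replicate block gave 4 called members for enzalutamide with DHT over DHT (with ACACA, adjusted p = 0.0125, and SC5D, adjusted p = 0.00827, gained), 1 for enzalutamide with Dex 100 nM over enzalutamide and 2 for the enzalutamide effect in DHT minus vehicle; with Dex 10 nM the call of SCAP was lost (adjusted p = 0.0543) and ACACA was called (adjusted p = 0.00962). The correlations of arrays of a round ran from -0.04 to 0.24, beside a median of -0.03 for different rounds.

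Leaving out each array in turn gave 3 to 6 called members for DHT, 0 to 1 for Dex 10 nM and 2 to 3 for Dex 100 nM over vehicle. It gave 0 to 2 for enzalutamide with DHT over DHT, 0 to 1 for enzalutamide with Dex 10 nM and with Dex 100 nM over enzalutamide, 0 to 1 for Dex 100 nM over DHT, and 0 to 2 for the enzalutamide effect in DHT minus vehicle. The comparisons with 0 members called gave 0 without each array, except the 2 under enzalutamide just named. The scalings moved the median of all genes by at most 0.05. A slide block was not run, because the headers used here give no slide.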
